A study of Mus musculus with 9 samples.

Results

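The genes described here are 45 genes of DNA replication licensing and the replication fork, listed by symbol, in cultured pre-B cells of the mouse. These precursors of B lymphocytes divide in response to the cytokine IL-7 and then rearrange their immunoglobulin light-chain genes. A probe set carrying the symbol was found for 44 of them, and Chaf1a was not analysed here. For each gene the probe set with the highest mean over the 9 arrays was used. All 44 passed the filter on low values, among 12828 genes tested. The list is matched by gene name, and is divided below by role into 7 groups.

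The cells of all 9 arrays carried the genotype IRF4,8 -/-, so the genes for IRF4 and its relative IRF8, factors that control transcription in B cells, were deleted in every group, controls included. High IL-7 was labelled 5 ng (3 arrays), low IL-7 was labelled 0.25 ng (3 arrays), and in the +IRF4 group IRF4 was put back into cells kept at the high amount (3 arrays). The labels do not agree on the volume behind these amounts, and no empty-vector or mock-treated control for the reintroduction is named. Nothing in the labels places the 3 arrays of a group in separate cultures or animals, so a p-value here reflects only how far these arrays scatter, which may be technical. Array medians ran from 139.7 to 151.3 intensity units, and replicates correlated with r of at least 0.986 in each group. Of 2 Irf4 probe sets, the dimmer read 7.77 to 8.63 in high IL-7, 8.09 to 8.37 in low IL-7 and 10.11 to 11.32 in +IRF4. The brighter read 12.21 to 12.50, 12.81 to 12.96 and 11.86 to 12.06, so it was not raised in +IRF4, and the sources used here do not give where either lies relative to the deleted part. Both Irf8 probe sets also gave signal in every array, from 10.95 in +IRF4 to 12.12 in low IL-7. Levels throughout are log2(intensity + 16), and differences are on that log2 scale. Since the arrays measured bulk RNA, fewer cells of a kind and less RNA per cell cannot be told apart.

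DNA is copied once per cell cycle because loading of the replicative helicase and its firing are kept apart in time. In G1 the origin recognition complex, with CDC6 and CDT1, loads the hexamer of MCM2 to MCM7 onto DNA, and geminin binds CDT1 to stop reloading later. In S phase the kinase CDC7 with DBF4, together with cyclin-dependent kinases, converts the loaded helicase to its active form with CDC45 and the GINS complex. DNA polymerase alpha with primase then starts each strand, polymerases epsilon and delta extend it on the sliding clamp PCNA, which the RFC complex loads, and RPA covers single-stranded DNA. Many of these genes are known targets of E2F transcription factors, which also raise cyclin E.

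Since E2F sites are the best known shared feature of these promoters, RefSeq windows of 300 bases (250 before to 50 after the transcription start, build GRCm38.p6) were searched on both strands for the letters TTTCCCGC, TTTGGCGC, TTTCGCGC and TTTGCCGC. The reverse complements are GCGGGAAA, GCGCCAAA, GCGCGAAA and GCGGCAAA, and matches on opposite strands can overlap. Windows were given for 35 of the 44 genes, and 15 of these 35 (42.9%) held at least 1 match, beside 466 of 10362 tested genes with a window (4.5%) and 744 of all 32851 windows (2.26%). TTTGGCGC and TTTCGCGC were each found in 7 of the 35 genes, TTTCCCGC in 6 and TTTGCCGC in 0. A match describes the letters and is not a measured binding site. The upstream 250 bases of Orc1 and Mcm6 are printed because Orc1 fell in low IL-7 and holds 1 match close to its start, while Mcm6 holds 3 upstream matches and did not pass the test there. They lie at chr4:108579204-108579453 (plus strand) and chr1:128359706-128359955 (minus strand), read 5′ to 3′ along the gene, and the capitals mark the matches.
Orc1: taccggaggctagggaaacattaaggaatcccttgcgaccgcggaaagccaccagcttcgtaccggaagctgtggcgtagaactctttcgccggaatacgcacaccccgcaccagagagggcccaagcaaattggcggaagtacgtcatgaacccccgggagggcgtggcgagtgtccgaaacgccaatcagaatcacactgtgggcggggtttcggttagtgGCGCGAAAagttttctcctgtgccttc
Mcm6: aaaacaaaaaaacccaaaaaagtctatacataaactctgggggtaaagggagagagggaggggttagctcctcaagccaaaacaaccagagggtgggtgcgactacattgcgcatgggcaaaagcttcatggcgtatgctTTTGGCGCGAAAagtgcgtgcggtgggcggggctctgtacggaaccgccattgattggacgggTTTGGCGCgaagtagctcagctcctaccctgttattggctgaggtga
Stretches of 30 bases around the match are printed for other genes that carry the results below, again along the gene and with the match in capitals: Cdc6 at chr11:98908002-98908031 (plus strand), the match of Mcm3 nearer its start at chr1:20820275-20820304 (minus strand), Pole2 at chr12:69228162-69228191 (minus strand), E2f2 at chr4:136172294-136172323 (plus strand) and Mcm7 at chr5:138172030-138172059 (minus strand).
Cdc6: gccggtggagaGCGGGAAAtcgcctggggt
Mcm3: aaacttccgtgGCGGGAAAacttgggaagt
Pole2: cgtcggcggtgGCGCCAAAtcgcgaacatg
E2f2: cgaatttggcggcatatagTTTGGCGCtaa
Mcm7: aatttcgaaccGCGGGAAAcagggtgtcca
The printed Cdc6 and Mcm7 matches lie before the start and those of Mcm3, Pole2 and E2f2 after it. The same Mcm7 window holds another match, TTTCGCGC, after the start, at bases 17 to 24 of the transcript. Of the genes described below as lower in low IL-7, 4 of the 8 with a window held a match, as did 1 of the 2 that were higher and 10 of the 25 that were not called.

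Before the comparisons, replicate 1 of low IL-7 has to be set apart. It was the highest of the 3 low IL-7 arrays for 42 of the 44 genes (95.5%), beside 53% of all genes tested. The mean over the 44 genes, relative to the high IL-7 mean, was 0.09 in low IL-7 replicate 1, -0.26 in replicate 2 and -0.17 in replicate 3. The high IL-7 arrays lay between -0.02 and 0.01 and the +IRF4 arrays between -0.02 and 0.08. In replicate 1, 22 genes were above all 3 high IL-7 arrays and 8 below all 3. In replicate 2 these counts were 5 and 31, and in replicate 3 they were 8 and 27. The median SD of the 44 genes was 0.198 in low IL-7, 0.0871 in high IL-7 and 0.0862 in +IRF4, whereas over all genes it was 0.112, 0.101 and 0.118. Replicate 1 was also the highest low IL-7 array for 34 of 38 other replication genes and for 18 of 28 mitosis genes. This array was noticed from the genes' own values, so the results without it are given beside those with it and are not independent support for a fall. High IL-7 replicate 1, which deviated together with it (r = 0.549 over the genes tested), was kept in the fits without it.

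**Figure D1:**
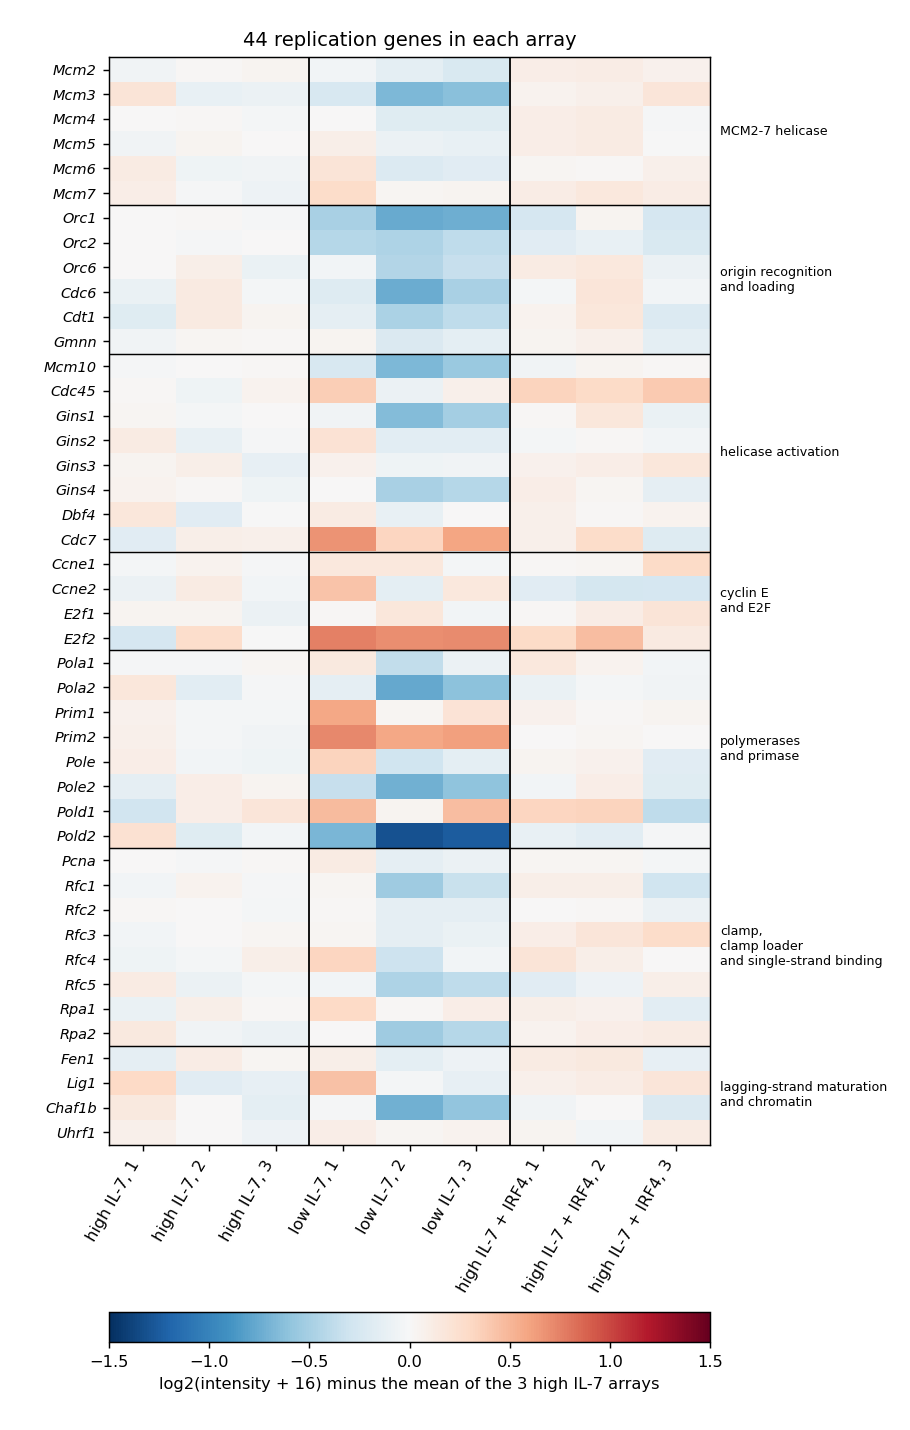
Each row is 1 of the 44 genes, grouped by role, and each column 1 of the 9 arrays; colour gives log2(intensity + 16) minus the mean of the 3 high IL-7 arrays, from blue (lower) to red (higher). Low IL-7 replicates 2 and 3 are mostly blue, with 31 and 27 genes below all high IL-7 arrays, whereas replicate 1 has 8 such genes.

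Low IL-7 against high IL-7 asks how the replication genes stand when the cytokine is lowered. Of the 44 genes, 12 passed the test (27.3%), 3 higher and 9 lower, whereas 37.4% of all genes tested passed, 17.8% higher and 19.6% lower. By the brightest probe sets, the share of replication genes called was below the background, and their share called lower (20.5%) was close to it. Changes ran from -1.08 for Pold2 to 0.72 for E2f2 with a median of -0.06, beside a median of 0.02 over all genes. The median of the 44 genes was -0.10 with each array centred on its median and -0.03 after quantile normalization. With the mean of each gene's probe sets, 16 of the 44 genes passed, 12 lower and 4 higher, beside 38.3% of all genes. That setting kept the calls above and added Cdc45, Cdt1, Fen1 and Mcm2. Arrays of low and high IL-7 were fully separate for 11 of the 44 genes, 3 above and 8 below, and for 50.3% of all genes. The test was limma's moderated test with Benjamini-Hochberg adjustment over all genes and a call at an adjusted p under 0.05.

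Without low IL-7 replicate 1 more of the genes passed, nearly all of them lower. Then 23 of 44 genes passed (52.3%), 20 lower and 3 higher, beside 36% of all genes, 15.7% higher and 20.4% lower. The median change was -0.18. All 12 earlier calls remained, and Mcm2, Mcm4, Mcm6, Orc6, Cdt1, Gins4, Pcna, Rfc1, Rfc5, Rpa2 and Chaf1b were added, all lower. Same-numbered arrays of high and low IL-7 deviated together, and a fit of only these arrays with that number as a replicate block called 18 genes, 14 lower and 4 higher, beside 45.9% of all genes. That fit kept the 12 genes and added Cdt1, Chaf1b, Gins4, Prim1, Rfc5 and Rpa2.

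**Figure D2:**
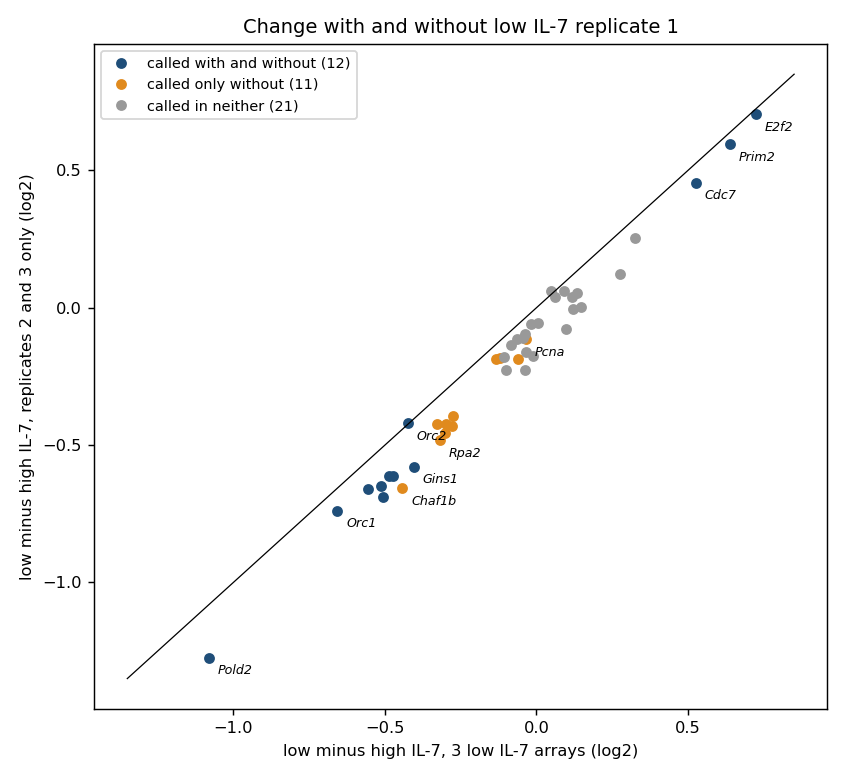
The change from high to low IL-7 (log2) of each of the 44 genes with all 3 low IL-7 arrays (horizontal) and with replicates 2 and 3 alone (vertical); the line marks equal values. Most points lie below the line, 12 genes were called in both fits and 11 only without replicate 1.

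The origin recognition and loading genes were the group with the lowest median change, -0.38, and all 6 lay below 0. Orc1, the ATP-binding large subunit of the origin recognition complex, read 8.85, 8.87 and 8.83 in high IL-7 and 8.36, 8.10 and 8.12 in low IL-7 (replicates 1 to 3). Every low IL-7 array lay below every high IL-7 array, a 1.58-fold fall (-0.66, SE 0.11, limma adjusted p = 0.000681). Orc2, another subunit of the complex, read 10.33, 10.30 and 10.32 against 9.89, 9.85 and 9.94, with no overlap and low IL-7 replicate 1 between the others (-0.43, SE 0.08, limma adjusted p = 0.00128). The 2 dimmer Orc2 probe sets gave larger falls, -1.01 and -1.05, and the dimmer Orc1 probe set gave -0.10 and did not pass.

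Cdc6, the ATPase that joins the origin complex to the helicase, read 10.85, 11.08 and 10.92 in high IL-7 and 10.76, 10.21 and 10.46 in low IL-7. The groups did not overlap, but the gap between the closest arrays was small (-0.47, SE 0.13, limma adjusted p = 0.0173). The call was lost without high IL-7 replicate 2, low IL-7 replicate 2 or low IL-7 replicate 3, with adjusted p up to 0.0638. Orc6, the smallest subunit of the complex, read 10.45, 10.54 and 10.35 against 10.41, 10.01 and 10.11, so low IL-7 replicate 1 lay inside the high IL-7 range (-0.28, SE 0.12, limma adjusted p = 0.0933; -0.39 and adjusted p = 0.0157 without that array). Cdt1, the helicase loading factor, changed by -0.33 (limma adjusted p = 0.0584), and without low IL-7 replicate 1 by -0.42 (limma adjusted p = 0.0267). Its inhibitor geminin, Gmnn, had a change of -0.11 and passed neither with nor without that array.

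By their brightest probe sets, only Mcm3 of the 6 helicase subunits Mcm2 to Mcm7 passed. Mcm3 read 12.32, 12.02 and 12.04 in high IL-7 and 11.89, 11.46 and 11.50 in low IL-7, without overlap, a 1.43-fold fall (-0.51, SE 0.12, limma adjusted p = 0.00598). Of the 5 Mcm3 probe sets 4 passed, with changes from -0.46 to -0.58, and the dimmest gave -0.13. Mcm2 read 12.28, 12.35 and 12.38 against 12.30, 12.19 and 12.11, and Mcm4 read 12.50, 12.51 and 12.47 against 12.50, 12.31 and 12.31. In both genes low IL-7 replicate 1 sat within the high IL-7 arrays and replicates 2 and 3 below them, with changes of -0.14 and -0.12 that did not pass and, without replicate 1, -0.19 and -0.18 that did. The other subunits, Mcm5, Mcm6 and Mcm7, ran from -0.06 to 0.12, with Mcm7 the highest. Mcm6 passed without replicate 1 at -0.19. The dimmer Mcm2 probe set passed with all arrays, at -0.69 (limma adjusted p = 0.0161). The second brightest probe sets of Mcm4, Mcm5, Mcm6 and Mcm7 gave -0.05, -0.27, -0.03 and -0.25 and did not pass.

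Within the hexamer, Mcm3 was compared with its partners. Relative to the mean of the other 5 subunits in the same array, Mcm3 changed by -0.47, and the 3 low IL-7 values (-0.97, -1.18 and -1.13) lay below the 3 high IL-7 values (-0.46, -0.73 and -0.70). This difference within each array does not depend on a shift common to all MCM genes. It is 1 of 6 such within-complex contrasts, chosen after the values were seen, and a two-sided exact permutation test of 3 arrays against 3 cannot give a p below 0.1, which all 6 reached. All 6 contrasts used the brightest probe set of each gene. The second brightest probe sets of Mcm2, Mcm5 and Mcm7 had lower changes than those used, and those of Mcm4 and Mcm6 slightly higher ones. The contrast was not run with them.

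Among the 8 helicase activation genes, Mcm10 and Gins1 were lower and Cdc7 higher. Mcm10, a scaffold that helps the helicase and polymerase alpha engage, read 10.43, 10.46 and 10.47 in high IL-7 and 10.21, 9.78 and 9.90 in low IL-7, a 1.40-fold fall with no overlap (-0.49, SE 0.11, limma adjusted p = 0.0047). Gins1, a subunit of the GINS complex, read 10.42, 10.35 and 10.39 against 10.33, 9.74 and 9.88 (-0.41, SE 0.14, limma adjusted p = 0.0441). Low IL-7 replicate 1 was within 0.1 of the high IL-7 arrays for Gins1, and its call was lost when any of the 3 high IL-7 arrays, low IL-7 replicate 2 or 3, or +IRF4 replicate 1 or 2 was left out (limma adjusted p up to 0.163), as well as without the filter and with only the compared groups in the fit. Relative to Gins2, Gins3 and Gins4, Gins1 changed by -0.29 without overlap (exact permutation p = 0.1, the smallest possible). Gins2 and Gins3 had changes of -0.04 and -0.02, and Gins4 changed by -0.30, passing only without replicate 1 (-0.46, limma adjusted p = 0.00451).

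Cdc7, the kinase that phosphorylates the loaded helicase, moved the other way. It read 9.55, 9.80 and 9.79 in high IL-7 and 10.38, 10.03 and 10.30 in low IL-7, all low IL-7 arrays above all high IL-7 arrays, a 1.44-fold rise (0.53, SE 0.14, limma adjusted p = 0.0125). Its activating subunit Dbf4 had a change of 0.00 (95% interval -0.21 to 0.21). Cdc45, the helicase cofactor, read 9.60, 9.52 and 9.65 against 9.97, 9.51 and 9.67 and did not pass (0.12, limma adjusted p = 0.453), its 3 low IL-7 arrays falling on both sides of the high IL-7 range. A dimmer Cdc45 probe set did pass, at 0.52.

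The cyclin E and E2F genes all lay above 0 by their brightest probe sets, and E2f2 alone passed. E2f2, an activating member of the E2F family, read 11.64, 12.17 and 11.89 in high IL-7 and 12.66, 12.60 and 12.60 in low IL-7, a 1.65-fold rise without overlap (0.72, SE 0.12, limma adjusted p = 0.000851). Its second probe set rose by 0.60. The low IL-7 arrays were close to each other and the high IL-7 arrays spread. Ccne2, cyclin E2, read 11.11, 11.32 and 11.15 against 11.63, 11.04 and 11.35 and overlapped (0.15, limma adjusted p = 0.417). Ccne1, which encodes the other cyclin E, and E2f1 had changes of 0.09 and 0.05. Their dimmer probe sets lay below 0, at -0.36 for Ccne1 and at -0.27 and -0.03 for E2f1, and none passed.

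The largest fall and the second largest rise were both in the polymerase and primase group. Pold2, the accessory subunit of polymerase delta, read 11.21, 10.81 and 10.94 in high IL-7 and 10.29, 9.68 and 9.74 in low IL-7, a 2.11-fold fall without overlap (-1.08, SE 0.16, limma adjusted p = 0.000375). Pold1, the catalytic subunit of the same polymerase, had a change of 0.33 with a wide interval (-0.12 to 0.77) and did not pass. The dimmer Pold1 probe set gave -0.05 and was not used in the contrast that follows. Relative to Pold1 in the same array, Pold2 changed by -1.41, from 0.29, -0.50 and -0.44 in high IL-7 to -1.38, -1.57 and -1.93 in low IL-7 (exact permutation p = 0.1, the smallest possible). The accessory subunit of polymerase epsilon, Pole2, read 10.79, 11.02 and 10.96 against 10.57, 10.21 and 10.32, a 1.47-fold fall (-0.56, SE 0.12, limma adjusted p = 0.00343), while catalytic Pole had a change of -0.04. Pole2 relative to Pole changed by -0.52 without overlap, at the same smallest exact permutation p of 0.1.

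The primer-making complex was divided. Prim2, the large primase subunit, read 10.60, 10.49 and 10.46 in high IL-7 and 11.24, 11.10 and 11.13 in low IL-7, a 1.56-fold rise without overlap (0.64, SE 0.08, limma adjusted p = 8.13e-05). Its catalytic partner Prim1 had a change of 0.28 and did not pass (limma adjusted p = 0.093; 0.0393 with the replicate block and only the compared groups), and a dimmer Prim1 probe set passed at 0.41. Pola2, the accessory subunit of polymerase alpha, read 10.50, 10.17 and 10.31 against 10.18, 9.56 and 9.71, so low IL-7 replicate 1 just overlapped the lowest high IL-7 array (-0.51, SE 0.15, limma adjusted p = 0.0221). The Pola2 call was lost when replicate 1 or 3 of high IL-7, or replicate 2 or 3 of low IL-7, was left out (limma adjusted p up to 0.0868). The catalytic subunit Pola1 had a change of -0.10. Accessory subunits Pola2, Pold2 and Pole2 fell while the catalytic Pola1, Pold1 and Pole did not pass. Outside this list, the accessory subunits Pole3 and Pole4 changed by -0.60 and -0.62 (limma adjusted p = 0.0135 and 0.000485). Pold3 changed by 0.12 and did not pass, and Pold4 rose by 0.31 (limma adjusted p = 0.0279). Whether accessory and catalytic subunits differ as kinds was not tested.

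No gene of the clamp, clamp loader and single-strand binding group passed, and 7 of these 8 lay below 0 (5 of 8 after quantile normalization). Pcna, the sliding clamp, had a change of -0.04 (95% interval -0.16 to 0.09), and without low IL-7 replicate 1 it passed at -0.11 (limma adjusted p = 0.025). Rpa2, the middle subunit of the single-strand binding complex, read 11.50, 11.30 and 11.26 in high IL-7 and 11.37, 10.82 and 10.93 in low IL-7. Low IL-7 replicate 1 lay among the high IL-7 arrays and the others well below (-0.32, limma adjusted p = 0.0782; -0.48 and 0.00219 without that array). Rfc3, a clamp loader subunit, read 10.46, 10.50 and 10.53 against 10.53, 10.36 and 10.40 (-0.07, limma adjusted p = 0.581). The remaining Rfc1, Rfc2, Rfc4, Rfc5 and Rpa1 ran from -0.30 to 0.14, and of these Rfc1 and Rfc5 passed without replicate 1, at -0.43 and -0.42.

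In the lagging-strand and chromatin group, Fen1 is the flap nuclease and Lig1 the ligase that seals Okazaki fragments. Uhrf1 guides maintenance methylation behind the fork. The brightest probe sets of these genes had changes of -0.04, 0.10 and 0.06. Dimmer probe sets of Fen1 and Uhrf1 gave -0.57 (limma adjusted p = 0.0147) and -0.33 (limma adjusted p = 0.318). Chaf1b, a subunit of the histone chaperone CAF-1, changed by -0.44 (limma adjusted p = 0.0608) and by -0.66 without low IL-7 replicate 1 (limma adjusted p = 0.00194). With all arrays the dimmer Chaf1b probe set gave 0.17 and did not pass. For the 32 genes that did not pass with all arrays, the 95% intervals lay between -0.82 (Chaf1b) and 0.77 (Pold1), so changes beyond those bounds were outside every interval, and 8 of them had an unadjusted p under 0.05. Brighter and dimmer probe sets pointed the same way in all 16 comparisons within the 10 called genes that have several, and 9 of these dimmer probe sets passed. For Orc1, Gins1, Cdc7 and Pola2 no dimmer probe set passed. The 6 uncalled genes Cdc45, Cdt1, Fen1, Mcm2, Prim1 and Rfc1 had a dimmer probe set that passed when all probe sets were tested, between -0.69 for Mcm2 and 0.52 for Cdc45.

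**Figure D3:**
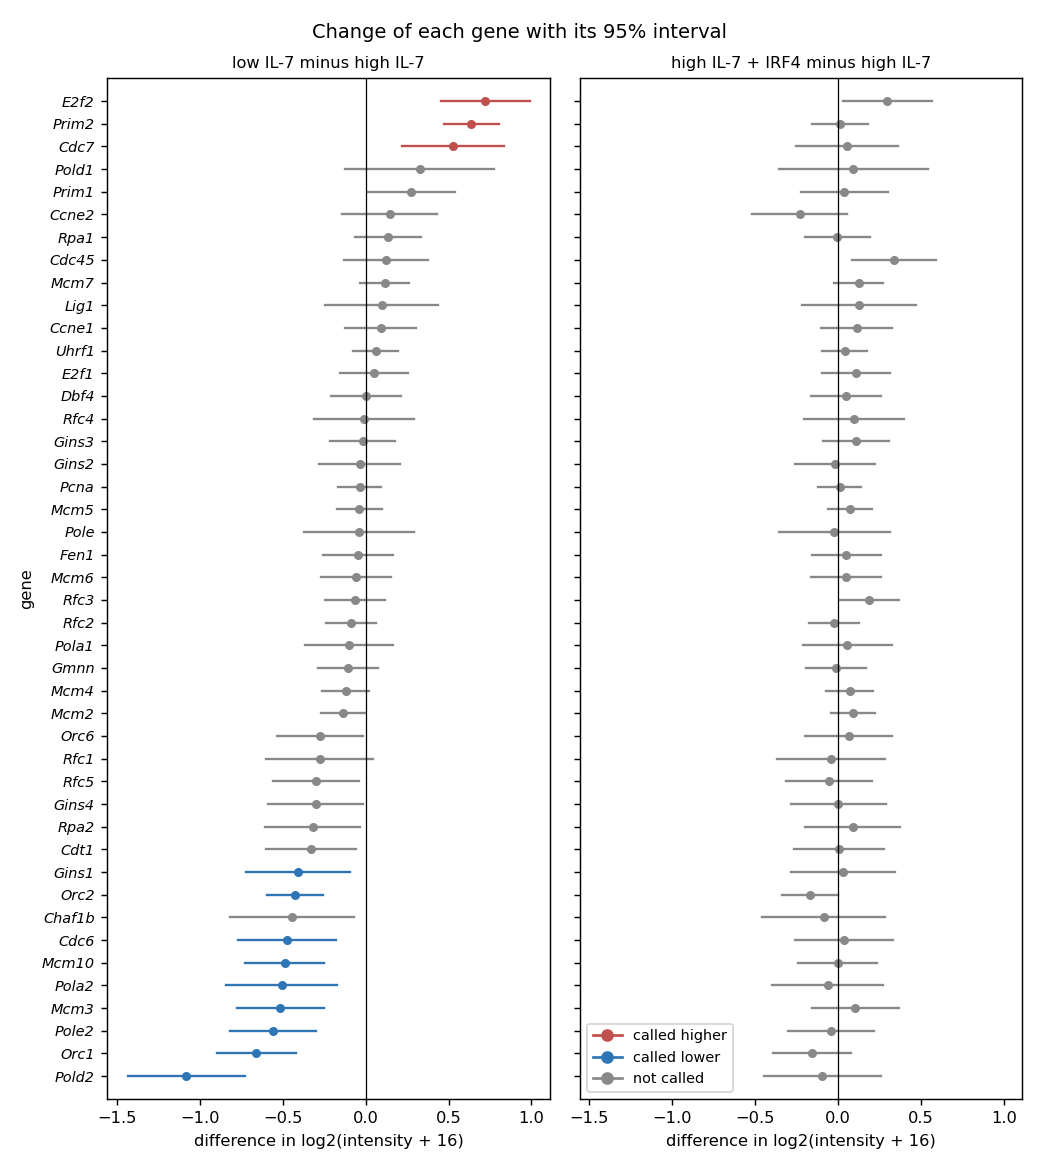
Differences in log2(intensity + 16) with 95% intervals for the 44 genes, low IL-7 minus high IL-7 on the left and +IRF4 minus high IL-7 on the right, in the order of the left panel. On the left 3 genes are called higher (red) and 9 lower (blue); on the right no gene is called and every interval lies between -0.52 and 0.59.

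The comparison of +IRF4 with high IL-7, at the same IL-7 amount, asks how the replication genes stand once IRF4 is put back. With no empty-vector or mock-treated control named, IRF4 and the procedure that put it back cannot be told apart. None of the 44 genes passed, and 4 had an unadjusted p under 0.05; of all genes tested 2.85% passed, 1.89% higher and 0.951% lower. The smallest limma adjusted p was 0.182. Changes ran from -0.23 to 0.34 with a median of 0.04, and all 44 of the 95% intervals lay within 1 of 0, 40 of them within 0.5. Arrays did not overlap for 6 genes, 4 above and 2 below, beside 21% of all genes. The comparison uses the same high IL-7 arrays as the one above.

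Cdc45 had the highest value of this comparison. It read 9.92, 9.88 and 9.98 in +IRF4, all above the high IL-7 arrays (0.34, SE 0.11, limma adjusted p = 0.182). E2f2 followed, at 12.19, 12.37 and 12.03, overlapping high IL-7 (0.30, limma adjusted p = 0.28), and Rfc3, at 10.60, 10.67 and 10.77, lay above all high IL-7 arrays (0.19, limma adjusted p = 0.323). At the other end Ccne2 read 11.02, 10.93 and 10.94, below all high IL-7 arrays (-0.23, limma adjusted p = 0.457). Orc2 read 10.15, 10.21 and 10.09, also below (-0.17, limma adjusted p = 0.33), and Orc1 read 8.60, 8.89 and 8.60, overlapping (-0.16, limma adjusted p = 0.55). The helicase subunits Mcm2 to Mcm7 were all slightly above 0, from 0.05 to 0.13, and none passed. Prim2, which rose by 0.64 in low IL-7, read 10.52, 10.55 and 10.52 with IRF4, a change of 0.01 (95% interval -0.16 to 0.18). Pold2 read 10.88, 10.83 and 10.97, a change of -0.09 (95% interval -0.45 to 0.26).

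**Figure D4:**
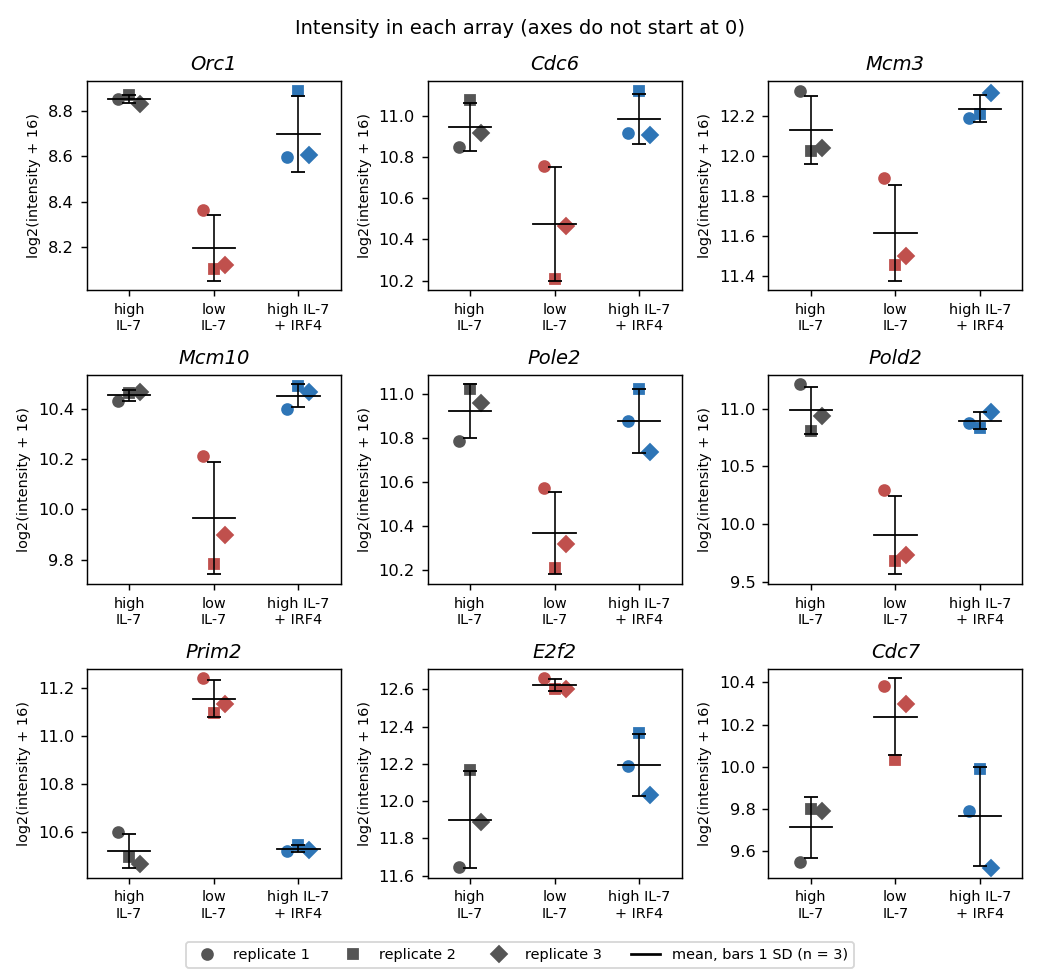
Log2(intensity + 16) of 9 of the genes in each array, by group, with the mean and 1 SD (n = 3); the marker shape gives the replicate number and the axes do not start at 0. The 6 plotted genes called lower in low IL-7 are Orc1, Cdc6, Mcm3, Mcm10, Pole2 and Pold2. In each of them replicate 1 is the highest low IL-7 array, and all +IRF4 arrays lie above all low IL-7 arrays. Among called genes not plotted, Orc2 had replicate 3 as its highest low IL-7 array, and for Gins1 the +IRF4 and low IL-7 arrays overlapped.

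Set against low IL-7, the +IRF4 cells differ in both IL-7 and IRF4, and the low IL-7 arrays are those used above. Of the 44 genes, 18 passed (40.9%), 14 higher and 4 lower in +IRF4; of all genes 36.4% passed, 18.6% higher and 17.7% lower. The median was 0.12, beside 0.00 for all genes, and arrays did not overlap for 16 genes (36.4%), beside 48.1% of all genes. Higher in +IRF4 were Mcm2, Mcm3, Mcm4, Orc1, Orc2, Orc6, Cdc6, Mcm10, Gins1, Pola2, Pole2, Pold2, Rfc3 and Rpa2, and lower were Prim2, Cdc7, E2f2 and Ccne2.

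Pold2 was 1.98-fold higher (0.99, SE 0.16, limma adjusted p = 0.000765) and Prim2 1.54-fold lower (-0.63, SE 0.08, limma adjusted p = 0.00011) in +IRF4 than in low IL-7. Mcm3 read 12.19, 12.21 and 12.31 in +IRF4, all above low IL-7 (0.62, SE 0.12, limma adjusted p = 0.00214). Of the origin genes, Cdc6 read 10.92, 11.12 and 10.91 (0.51, limma adjusted p = 0.0126) and Orc6 10.57, 10.61 and 10.36, where low IL-7 replicate 1 overlapped (0.34, limma adjusted p = 0.0441). Orc1 differed by 0.50 and Orc2 by 0.26, without overlap. These 4 were each higher in +IRF4 than in low IL-7 replicates 2 and 3. Among polymerase genes, Pole2 read 10.88, 11.03 and 10.74 (0.51, limma adjusted p = 0.00585) and Pola2 10.23, 10.29 and 10.27 (0.44, limma adjusted p = 0.0406). Mcm10 read 10.40, 10.49 and 10.46 (0.49, limma adjusted p = 0.00507) and Gins1 10.40, 10.56 and 10.29 (0.44, limma adjusted p = 0.0332). Both helicase activation genes lay near their high IL-7 levels. Rpa2 read 11.41, 11.45 and 11.47 (0.41, limma adjusted p = 0.0303), Mcm2 12.43, 12.44 and 12.41 (0.23, limma adjusted p = 0.013) and Mcm4 12.59, 12.62 and 12.48 (0.19, limma adjusted p = 0.0407). Rfc3 differed by 0.25 (limma adjusted p = 0.0349). Cdc7, at 9.79, 9.99 and 9.52, was lower than in low IL-7 (-0.47, limma adjusted p = 0.0222), as were E2f2 (-0.43, limma adjusted p = 0.0187) and Ccne2 (-0.38, limma adjusted p = 0.0426).

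Several of these calls changed with the arrays or the settings of the fit. Without low IL-7 replicate 1, 24 genes passed, 23 higher and 1 lower (Prim2), beside 33.8% of all genes, 19% higher and 14.8% lower. The count was 8 without low IL-7 replicate 3, 12 without low IL-7 replicate 2, 9 without +IRF4 replicate 2 and 11 without +IRF4 replicate 1, with 7, 7, 6 and 8 of them higher. Cdc7, E2f2 and Ccne2 no longer passed without low IL-7 replicate 1 or 3 or +IRF4 replicate 3, which left Prim2 as the gene called lower. Mcm3, Mcm10, Prim2, Pole2 and Pold2 passed under each of the 19 alternatives run. Calls of Mcm4, Orc6, Gins1, Pola2, Rfc3, Rpa2 and Ccne2 were each lost in at least 5 of them, Orc2 in 4, and Mcm2 (without low IL-7 replicate 3), Cdc6 (without +IRF4 replicate 2) and Orc1 (mean of probe sets) in 1.

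Among the within-complex contrasts, Orc6 relative to Orc1 and Orc2 was the one that also separated +IRF4 from high IL-7. It was 0.27 higher in low IL-7 and 0.23 higher in +IRF4 than in high IL-7, without overlap in either case (exact permutation p = 0.1, the smallest possible, for each). Prim2 relative to Prim1 was 0.36 higher in low IL-7 (exact permutation p = 0.1) and -0.03 in +IRF4 (exact permutation p = 0.3). For Mcm3, Pold2, Pole2 and Gins1 relative to their partners, +IRF4 differed from high IL-7 by 0.02, -0.19, -0.02 and 0.00, with overlapping arrays and exact permutation p from 0.5 to 1. After adjustment over the 6 contrasts the exact permutation p was 0.1 for each in low IL-7, and 0.6 for Orc6 in +IRF4.

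Other genes of replication also went both ways. Of 38 tested, 10 fell (26.3%) and 6 rose (15.8%) in low IL-7, beside 19.6% and 17.8% of all genes, with a median of -0.10. Rnaseh2a, the catalytic subunit of the nuclease that removes RNA from DNA, fell by 0.78 (limma adjusted p = 0.00116), Pole4, a small subunit of polymerase epsilon, by 0.62 (limma adjusted p = 0.000485) and Orc3, an origin complex subunit, by 0.56 (limma adjusted p = 0.0032). Top2a, the topoisomerase that untangles chromosomes, rose by 0.38 (limma adjusted p = 0.000104) and is counted in the mitosis list below as well. Mcm9, Asf1b, Pold4, Asf1a and Pclaf also rose, by 0.20 to 0.44. In +IRF4 against high IL-7 Pold4, the smallest subunit of polymerase delta, was the only one of the 38 to pass (0.78, SE 0.10, limma adjusted p = 0.00138). Without low IL-7 replicate 1, 13 fell and 4 rose in low IL-7.

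Among regulators of the G1 to S transition the median size of the change, whatever its sign, was 0.47, beside 0.14 for the 44 replication genes and 0.21 for all genes. Of 24 tested, 7 fell (29.2%) and 10 rose (41.7%) in low IL-7, beside 19.6% and 17.8% of all genes. Ccnd2, the D-type cyclin that answers to growth factors, read 11.43 to 11.78 in high IL-7 and 8.50 to 8.64 in low IL-7 (-3.03, SE 0.10, limma adjusted p = 1.37e-07), and Myc read 11.44 to 12.16 against 8.98 to 9.43 (-2.66, SE 0.17, limma adjusted p = 1.95e-06). Rb1, the retinoblastoma protein that restrains E2F, rose by 1.07 and its relatives Rbl1 and Rbl2 by 0.57 and 0.87. Among E2F partners and relatives E2f4 fell by 1.20 with a wide error (SE 0.38, limma adjusted p = 0.0314) and Tfdp1 and E2f3 fell by 0.50 and 0.47, whereas Tfdp2, E2f7 and E2f8, the last 2 of them repressors, rose by 1.39, 0.80 and 0.57. In +IRF4 Ccnd2 and Rb1 were higher than in high IL-7, by 1.12 and 1.09, and no other gene of this list passed.

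Mitosis genes were mostly higher in low IL-7. In low IL-7, 22 of the 28 tested rose and 0 fell, and the median was 0.46, and 21 rose without low IL-7 replicate 1. Their means relative to high IL-7 were 0.51, 0.39 and 0.49 in the 3 low IL-7 arrays, against 0.09, -0.26 and -0.17 for the 44 replication genes. In +IRF4 none of the 28 mitosis genes passed, and 9 had an unadjusted p under 0.05. The share called higher can be read beside the 17.8% of all genes.

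**Figure D5:**
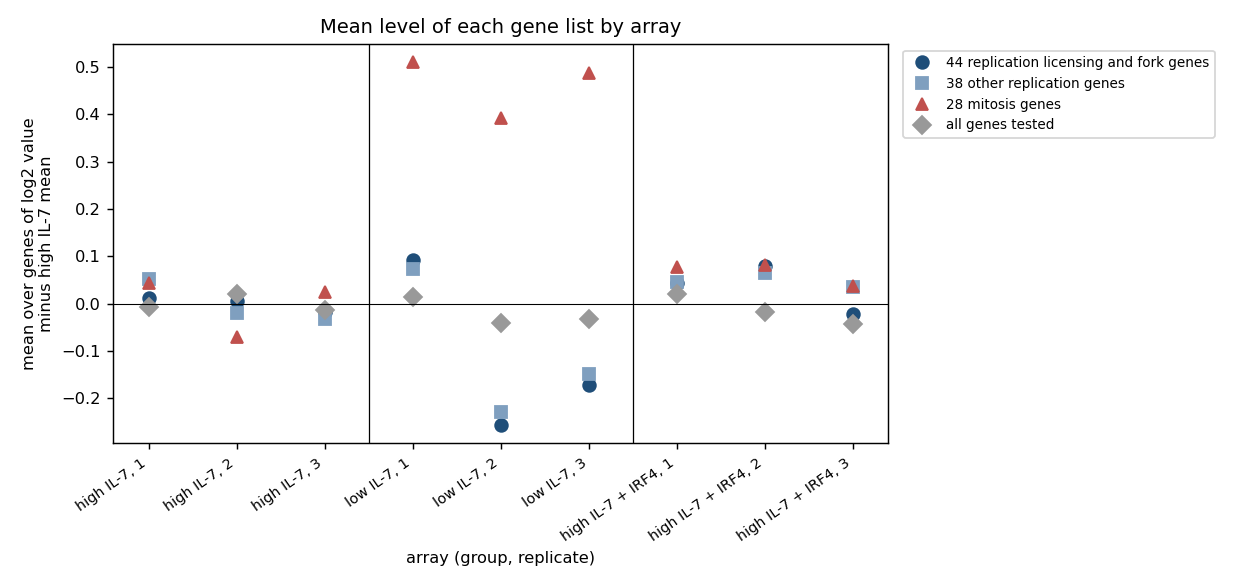
Mean over the genes of each list of log2(intensity + 16) minus the high IL-7 mean, in each of the 9 arrays, for the 44 replication genes, 38 other replication genes, 28 mitosis genes and all genes tested. In low IL-7 the mitosis means lie between 0.39 and 0.51, and the 44 replication genes lie at 0.09 in replicate 1 and at -0.26 and -0.17 in replicates 2 and 3.

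Markers of pre-B cells were bright in every array. The summed intensity of 6 pre-B markers was 35240 to 43600 in high IL-7, 47100 to 50100 in low IL-7 and 36990 to 40160 in +IRF4. Stromal markers, 8 of 8, summed to 4436 to 24630, 1798 to 5561 and 2264 to 16450, with Pdgfra and Col3a1 passing as lower in low IL-7. T cell markers, 5 of 5, summed to 820.1 to 905.1, 906.6 to 1086 and 816.7 to 990.2, and myeloid markers, 6 of 6, to 856.2 to 878.6, 924.4 to 1055 and 842.1 to 991.8, with Itgam higher in low IL-7 by 2.01. Erythroid markers, 3 of 5, summed to 394 to 403.3, 348.7 to 395.2 and 393.2 to 447.4. Cd3d, Cd3g, Mpo, Elane, Hba-a1 and Klf1 were below the filter. No list summed to 0 in any array, and the part of these other cells in the changes above was not tested.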

How the data were processed

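Total RNA was hybridised to 9 Affymetrix mouse arrays, per the labels. The authors deposited linear intensity values for 45101 probe sets, from 0 to 24761.9; the sources used here do not give how they were summarised or scaled. No detection values were used, so only the filter guards against dim signal.

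The platform annotation gave 1 symbol to 34945 probe sets, several to 932 and none to 9160, besides 64 controls. From log2(intensity + 16), single-symbol probe sets with a mean at or above the 40th percentile (intensity 108) were kept and the brightest stood for its gene, giving 12828 genes. limma 3.58.1 in R 4.3.3 fitted group means over all 9 arrays (lmFit, eBayes with a trend), and p-values were adjusted by Benjamini-Hochberg over all genes, with calls at under 0.05. Single probe sets were adjusted over all probe sets. The procedure was tested on simulated data. Figures used matplotlib 3.10.9 in Python 3.11.15.

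Same-numbered arrays of high and low IL-7 deviated together (r = 0.549, 0.386 and 0.286 for numbers 1 to 3), so the pairing comes from the data, although high IL-7 array 2 also correlated with low IL-7 array 3 (r = 0.342) and 3 with 2 (r = 0.113); +IRF4 arrays did not pair with either (r from -0.38 to -0.0129). Alternatives were pseudocounts of 1 and 64, no filter and the 60th percentile, quantile normalization, median centring, no trend, the mean of probe sets, only the compared groups, the replicate block and leaving out each array. The block with only the high and low IL-7 arrays was added after seeing the data. A gene was given array by array when called in any comparison or among the 3 highest or lowest of one; others are given as ranges or single values. The genes and lists were chosen with earlier results of these data known.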

Additional observations from a re-analysis of the deposited data

How the results depend on the processing

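No called change reversed its sign under any alternative run, and no gene was called for +IRF4 against high IL-7 under any of them. For low against high IL-7, leaving out 1 array gave 9 to 23 called genes (12 with all arrays), 6 to 20 of them lower, the highest counts without low IL-7 replicate 1. Of the uncalled changes, those of Cdc45, Dbf4 and Lig1 turned to -0.0049, -0.06 and -0.08 without that array, and 24 of 44 genes in place of 30 lay below 0 after quantile normalization. The replicate block with only the compared groups gave 14 lower, and over all 9 arrays it gave 13 called genes, adding Chaf1b; the block changed no other call except those given with the results. For +IRF4 against low IL-7, only the compared groups in the fit gave 11 called genes, 8 of them higher (18 and 14 with all groups), and leaving out 1 array gave 8 to 24, with 6 to 23 higher and 1 to 5 lower. With the block over all 9 arrays 17 were called, without Ccne2. For low against high IL-7, the alternatives under which a call was lost are named beside each result. For +IRF4 against low IL-7, several genes have only the number of alternatives that lost the call. The cause of these losses was not tested. With 3 arrays a group and changes mostly under 2-fold, the number of arrays limits the precision, and signal over background is unknown.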
